A study of Homo sapiens with 2 samples.

Results

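KDM1A, KDM1B, KDM2A, KDM3A, KDM5A, KDM5B, KDM5C, KDM6A, KDM6B and PHF8 are histone lysine demethylases, enzymes that remove methyl groups from histone tails. These 10 genes were chosen by name, with earlier results of these data known but by no threshold on their levels, and each was matched by its Ensembl identifier among the 57820 genes of the count table used here and in the second table of the series. They were measured as read counts from ribosomal RNA-depleted total RNA of T47D cells, an established human line of estrogen receptor-positive ductal breast carcinoma taken from a metastatic site. Their ESR1 gene held Y537S, a change of the receptor's hormone-binding part that leaves estrogen receptor alpha active without hormone, and they were transfected with 25 nM of a control siRNA in hormone-deprived medium. The labels gave this 1 group with 2 replicate libraries. Whether these came from separate cultures, and how many clones the mutant line represents, is not stated, so their spread may be technical. No condition could therefore be compared with another, and the values below describe this state. Columns labelled FM, 5M and 8M match no sample described here and were not analysed here.

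Demethylases fall into a pair of chemical classes. KDM1A (LSD1) and KDM1B (LSD2) use the cofactor FAD and act on mono- and dimethylated H3K4, whereas the other members carry a JmjC domain, which needs iron, oxygen and 2-oxoglutarate. KDM5 proteins act on di- and trimethylated H3K4, a mark of promoters, KDM2A acts on H3K36, KDM3A and PHF8 act mainly on H3K9, and KDM6 proteins remove the Polycomb mark from H3K27. In breast cancer cells KDM1A and KDM3A are known as coregulators of estrogen receptor target genes, and KDM5B is known as a gene highly expressed in luminal tumours. KDM5C and KDM6A lie on the X chromosome and are known to escape X inactivation.

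The libraries held 41370662 reads on genes in replicate 1 and 37198274 in replicate 2, and 11718 of 19250 nuclear protein-coding genes (60.9%) reached 1 CPM (counts scaled to library size) in both. All 9 luminal markers were detected by this rule, including KRT8, GATA3, FOXA1, ESR1 and PGR. None of 6 basal or myoepithelial, 4 mesenchymal or 3 endothelial markers was. The summed level of the basal list was 0.359 and 0.234 TPM and that of the mesenchymal list 0.192 and 0.208 TPM in replicates 1 and 2, against 2664 and 2485 TPM for the luminal list. KRT6A, KRT6B, CDH5 and KDR had no reads, for which the floor is 3 reads per library. Levels are given in TPM, that is reads divided by the summed exon length of the gene and scaled to the library.

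The sequences upstream of the paralogs KDM6A and KDM6B are shown because these genes stood furthest apart among the members of 1 family. They are the 250 bases before the RefSeq start on GRCh38.p14, plus strand, chrX:44872938-44873187 for KDM6A and chr17:7833967-7834216 for the first of its 2 listed starts for KDM6B. Both strands were searched. Capitals mark the GC box, which reads GGGCGG on 1 of the strands. They also mark the CCAAT box, named for its letters, and a single arm of the estrogen response element, for which the letters searched were AGGTCA.
KDM6A: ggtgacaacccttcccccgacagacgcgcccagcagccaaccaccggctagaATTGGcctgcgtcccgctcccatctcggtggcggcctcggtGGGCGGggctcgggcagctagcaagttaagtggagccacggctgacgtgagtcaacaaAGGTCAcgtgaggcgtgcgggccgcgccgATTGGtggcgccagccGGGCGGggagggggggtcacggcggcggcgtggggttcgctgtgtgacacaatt
KDM6B: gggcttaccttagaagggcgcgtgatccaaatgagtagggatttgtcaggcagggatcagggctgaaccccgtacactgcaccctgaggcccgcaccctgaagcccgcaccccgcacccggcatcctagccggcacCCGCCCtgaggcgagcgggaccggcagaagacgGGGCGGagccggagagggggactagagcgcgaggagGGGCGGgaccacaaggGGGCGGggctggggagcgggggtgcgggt
The KDM6A window held 2 GC boxes, 2 CCAAT boxes and 1 arm of the estrogen response element. The KDM6B window shown held 4 GC boxes and none of the other motifs. The window of the other listed KDM6B start, chr17:7839667-7839916, held none of the motifs and 1 CG dinucleotide. Which of these starts the cells use was not tested. Windows of this length at the 15 RefSeq starts of the 10 genes were searched for the same letters. A GC box was present in 10 of the 15, against 42.6% of 35116 windows of all genes, and a CCAAT box in 5, against 32% of all windows. A single arm of the estrogen response element was present in 1 of the 15, the KDM6A window above, against 12.1% of all windows. The palindrome of both arms, GGTCANNNTGACC, occurred in 0 of 15 and in 14 of the 35116 windows. Several members have more than 1 start, and starts of 1 gene can share bases. Annotated exons also cover part of many windows, from 0 bases in the KDM6B window shown and 11 in the KDM6A window to all 250 in the KDM5B window. Some of the letters searched may therefore lie in transcribed sequence. CG dinucleotides numbered 1 to 40 per window, with 27 in the KDM6A window and 21 in the KDM6B window shown, against a median of 11 over all windows. These matches describe letters only, and binding was not measured.

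All 10 demethylases were detected in both libraries, against 60.9% of all nuclear protein-coding genes, a difference that was not tested. Of the 10, 7 lay above the median of detected protein-coding genes, which was 9.24 TPM. In bulk RNA, fewer cells that express a gene and less RNA per cell cannot be told apart. The median of the 10 was 22.3 TPM in replicate 1 and 19.3 TPM in replicate 2. Their levels spanned more than an order of magnitude, with KDM5B standing 53.1-fold above KDM6B in replicate 1 (95% counting interval 46.8 to 60.6) and 43.2-fold in replicate 2 (38.1 to 49.2). The 5 enzymes of H3K4 supplied 74.1% of the summed TPM of the members in replicate 1 and 74.2% in replicate 2. The H3K36 enzyme KDM2A supplied 13.3% and 13.5%, the H3K27 enzymes 7.18% and 7.08%, and the H3K9 enzymes 5.43% and 5.15%. These shares cover the 10 chosen genes only, with 5 for H3K4, 1 for H3K36, 2 for H3K27 and 2 for H3K9. Other demethylases, among them KDM3B and the H3K9 enzyme KDM4B, were left out of the sum. With the longest coding transcript in place of the summed exon length, the H3K4 share was 70.1% and 70.6% and that of KDM2A 14.8% and 15.1%. The H3K9 enzymes then supplied 8.79% and 8.19%, more than the H3K27 enzymes with 6.24% and 6.12%, so the order of these last groups depended on the length.

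**Figure D1:**
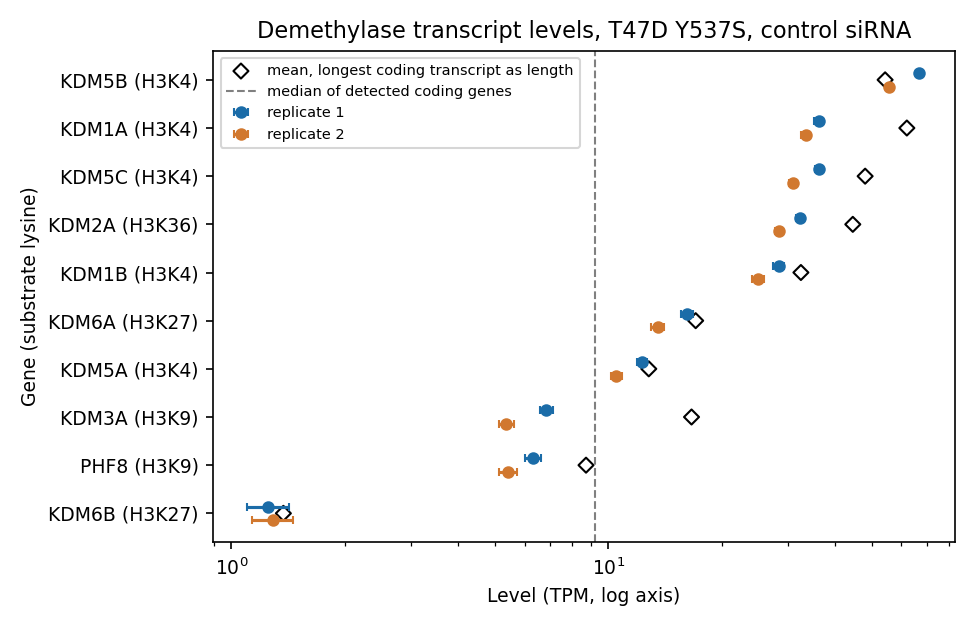
Level of each demethylase in TPM on a log axis, with the substrate lysine in brackets; filled points are the 2 libraries with 95% counting intervals, diamonds the mean level with the longest coding transcript as gene length, and the dashed line the median of detected protein-coding genes (9.24 TPM). KDM5B stands highest and KDM6B lowest on the filled points, and the diamonds move KDM1A and KDM3A most to the right. The diamonds keep the reads on all summed exons and were not rescaled to the library. The line uses summed exon lengths, so line and diamonds are not on the same scale.

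Among the FAD-dependent enzymes, KDM1A (ENSG00000004487.11, hg19 chromosome 1, 23345941 to 23410182, plus strand) is the catalytic subunit of the CoREST repressor complex. It had 5226 reads in replicate 1 and 4829 in replicate 2, which gave 36.2 TPM (95% counting interval 35.2 to 37.2) and 33.4 TPM (32.5 to 34.4). Its mean level was above 85.2% of detected protein-coding genes. Its paralog KDM1B (ENSG00000165097.9, chromosome 6, 18155560 to 18224084, plus strand), known for its role in setting imprints in mouse oocytes, had 28.4 TPM (27.4 to 29.3) and 25.0 TPM (24.1 to 25.9) from 3484 and 3073 reads. Each KDM1A value exceeded both KDM1B values. The fold between them was 1.28 and 1.34 in replicates 1 and 2, or 0.39 ± 0.05 on the log2 scale (SD, n = 2). That mean was below 0.44, the spread used here, which is the 95th percentile of absolute log2 TPM differences between the libraries over genes of the same CPM class. After the median difference between the libraries of -0.178 was subtracted, the spread was 0.29 and the ratio passed. It also passed with the longest coding transcripts as lengths, at 0.94 (1.91-fold), and in CPM, at 0.62.

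The KDM5 paralogs, which act on methylated H3K4 at promoters, were unequal. KDM5B (ENSG00000117139.12, chromosome 1, 202696526 to 202778598, minus strand) had 16207 and 13556 reads, or 66.6 TPM (65.6 to 67.6) in replicate 1 and 55.7 TPM (54.7 to 56.6) in replicate 2. Its mean lay above 92.5% of detected protein-coding genes, at rank 876 of 11718. KDM5C (ENSG00000126012.7, chromosome X, 53220503 to 53254604, minus strand), a gene of X-linked intellectual disability, had 36.2 TPM (35.4 to 37.0) and 30.9 TPM (30.2 to 31.7) from 8370 and 7159 reads. KDM5A (ENSG00000073614.7, chromosome 12, 389295 to 498620, minus strand), first known as a partner of the retinoblastoma protein, had 12.3 TPM (11.9 to 12.7) and 10.5 TPM (10.2 to 10.9) from 3940 and 3370 reads. The order KDM5B, KDM5C, KDM5A was the same in both libraries, with no overlap.

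KDM5B exceeded KDM5A 5.41-fold in replicate 1 (5.23 to 5.61) and 5.30-fold in replicate 2 (5.10 to 5.50), and KDM5C exceeded KDM5A 2.94-fold in both (2.83 to 3.06 and 2.82 to 3.07). Both ratios were larger than the replicate spread of 0.44 on the log2 scale. KDM5B exceeded KDM5C 1.84-fold (1.79 to 1.89) and 1.80-fold (1.75 to 1.85), a log2 ratio of 0.86 ± 0.02 against a spread of 0.43. This ratio changed with the length used. The longest coding transcript has 10341 bases for KDM5B and 6096 for KDM5C, against 9185 and 8727 summed exon bases. With those lengths the log2 ratio was 0.17, within the spread. Transcript lengths come from a later annotation than the counted exons, so the KDM5B transcript holds bases on which no read was counted. That mismatch lowers the KDM5B value and this ratio. KDM5A is the one member whose exons were partly covered by another gene row: 182 of its 12091 exon bases overlap CCDC77 on the opposite strand, and leaving those bases out gave a KDM5B to KDM5A log2 ratio of 2.40, against 2.42 with them.

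KDM2A (ENSG00000173120.10, chromosome 11, 66886740 to 67025558, plus strand) removes methyl groups from H3K36 and binds unmethylated CpG islands through a CXXC zinc finger. It had 8748 and 7711 reads, or 32.2 TPM (31.5 to 32.9) in replicate 1 and 28.4 TPM (27.7 to 29) in replicate 2. Its paralog KDM2B had 5.92 and 5.47 TPM. KDM2A thus stood 5.44-fold (5.19 to 5.71) and 5.19-fold (4.93 to 5.45) above KDM2B, beyond the replicate spread, and 3.00-fold above it with the longest coding transcripts as lengths.

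The H3K9 demethylase KDM3A (ENSG00000115548.12, chromosome 2, 86667770 to 86719839, plus strand), known as a hypoxia-induced gene, had 2437 and 1909 reads, or 6.85 TPM (6.58 to 7.13) and 5.36 TPM (5.13 to 5.61) in replicates 1 and 2. Its relatives were both higher. KDM3B had 34.4 and 29.1 TPM and JMJD1C had 18.3 and 17.1 TPM. The ratio of KDM3A to KDM3B was 0.199 (0.190 to 0.209) and 0.184 (0.175 to 0.194), and that of KDM3A to JMJD1C 0.374 (0.356 to 0.392) and 0.314 (0.298 to 0.331), both beyond the replicate spread. KDM3A has 13423 summed exon bases against 4928 in its longest coding transcript, 2.72 times as many, the widest such gap among the 10 genes. With the transcript as its length, and without rescaling the library, the KDM3A value was 18.7 and 14.6 in replicates 1 and 2. The log2 ratio to KDM3B was then -1.16 in place of -2.38, and that to JMJD1C -0.45 in place of -1.54, just past the spread of 0.44.

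PHF8 (ENSG00000172943.14, chromosome X, 53963109 to 54075391, minus strand) binds trimethylated H3K4 through a PHD finger and removes methyl groups from H3K9 and H4K20. It had 1510 and 1296 reads, or 6.32 TPM (6.01 to 6.65) and 5.42 TPM (5.13 to 5.73) in replicates 1 and 2. Its relatives PHF2, with 12.8 and 11.3 TPM, and KDM7A, with 9.59 and 9.40 TPM, were higher in both libraries. The log2 ratio of PHF8 to PHF2 was -1.04 ± 0.03 and that of PHF8 to KDM7A -0.70 ± 0.14, against a spread of 0.46. With the longest coding transcripts as lengths, the ratio to KDM7A was -0.15, within the spread, and that to PHF2 was -0.47. In CPM the ratio to PHF2 was -0.35, no longer past the spread, and that to KDM7A was -0.76.

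The widest ratio among the 10 pairs of relatives was that of the H3K27 demethylases, and 9 of the 10 pairs passed the spread in TPM. The share of other gene pairs that pass was not computed, so this count does not set the relatives apart. KDM6A (UTX; ENSG00000147050.10, chromosome X, 44732757 to 44971847, plus strand), a subunit of the KMT2C and KMT2D complexes, had 2914 and 2444 reads, or 16.2 TPM (15.6 to 16.8) and 13.5 TPM (13 to 14.1) in replicates 1 and 2. KDM6B (JMJD3; ENSG00000132510.6, chromosome 17, 7743222 to 7758114, plus strand), known as an inducible gene of inflammatory and stress responses, had 241 and 248 reads, or 1.253 TPM (1.1 to 1.42) and 1.29 TPM (1.13 to 1.46). KDM6A thus exceeded KDM6B 12.9-fold in replicate 1 (11.3 to 14.8) and 10.5-fold in replicate 2 (9.22 to 12.0). With the longest coding transcripts as lengths the fold was 12.4, and without any length 10.9. KDM6B had the fewest reads of the 10 genes and hence the widest counting intervals, and its mean was above 10.5% of detected protein-coding genes.

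**Figure D2:**
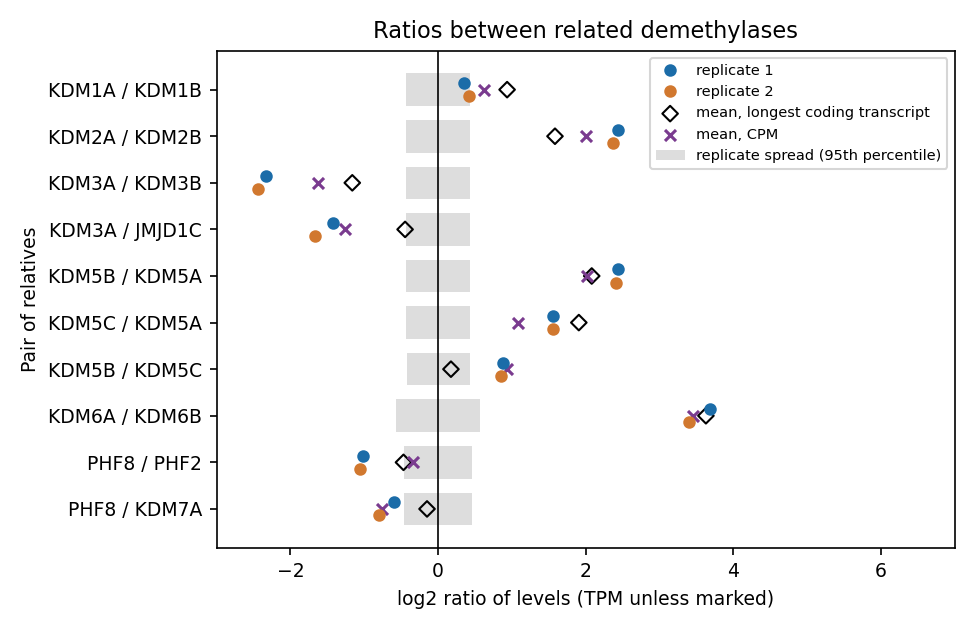
Log2 ratio of each demethylase to a relative, with points for the 2 libraries in TPM, diamonds for the mean with the longest coding transcripts as lengths and crosses for the mean in CPM; grey bars span the 95th percentile of replicate differences. All ratios but KDM1A to KDM1B lie outside the grey bars in TPM, and the diamonds of KDM5B to KDM5C and PHF8 to KDM7A lie inside.

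By mean TPM the order ran KDM5B, KDM1A, KDM5C, KDM2A, KDM1B, KDM6A, KDM5A, KDM3A, PHF8, KDM6B, and the order in replicate 2 differed from it only in the exchange of KDM3A and PHF8. Of the 9 pairs of neighbours, 4 differed beyond the replicate spread, a count that was not set against other genes. They were KDM5B over KDM1A (log2 ratio 0.81 ± 0.10), KDM1B over KDM6A (0.85 ± 0.05), KDM5A over KDM3A (0.91 ± 0.09) and PHF8 over KDM6B (2.20 ± 0.19). Within the run from KDM1A to KDM1B, between 34.8 and 26.7 TPM on average, neighbours did not differ from each other beyond the spread, with log2 ratios of 0.06, 0.15 and 0.18. KDM6A to KDM5A (0.38) and KDM3A to PHF8 (0.05) also did not pass, although both KDM6A values exceeded both KDM5A values. The direction of 2 of these calls turned with the length: when the longest coding transcript was used, the log2 ratio of KDM5B to KDM1A was -0.20 and that of KDM5A to KDM3A -0.37, neither past the spread. With the same lengths KDM3A to PHF8 was 0.92 and KDM2A to KDM1B 0.46, both then past the spread. KDM1A was then highest, with 64.5 and 59.5 in replicates 1 and 2, against 59.1 and 49.4 for KDM5B, in values not rescaled to the library. Here reads on all 5447 summed exon bases of KDM1A were divided by a transcript of 3059 bases. Those on the 9185 of KDM5B were divided by a transcript of 10341. The KDM1A value thus rises and the KDM5B value falls by construction, so this exchange does not show which gene is higher. KDM6B was lowest under every length tried, and its gap to the next gene, PHF8, was 2.66 on the log2 scale with transcript lengths.

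The 10 genes varied little between the libraries. After TMM scaling, the log2 ratio of replicate 2 to replicate 1 ran between -0.18 for KDM3A and 0.22 for KDM6B, with a median of -0.05, against a median of -0.003 over all 14176 detected genes. The ratio was below 0 for 8 members and above 0 for KDM1A (0.06) and KDM6B, and it was below 0 for 50.7% of all detected genes. Past 0.32 on the log2 scale, 0 of the 10 members were higher and 0 lower in replicate 2, against 9.07% and 6.51% of all detected genes. A count of 0 of 10 does not set the members apart from that background. In KDM6B the counting intervals of the libraries overlap. In TPM, 9 of the 10 members were lower in replicate 2, and the share of all genes lower in TPM was not computed. The median log2 TPM difference of replicate 2 from replicate 1 over all detected genes was -0.178. Nuclear protein-coding genes held 29.8% of the TPM in replicate 1 and 26.4% in replicate 2.

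**Figure D3:**
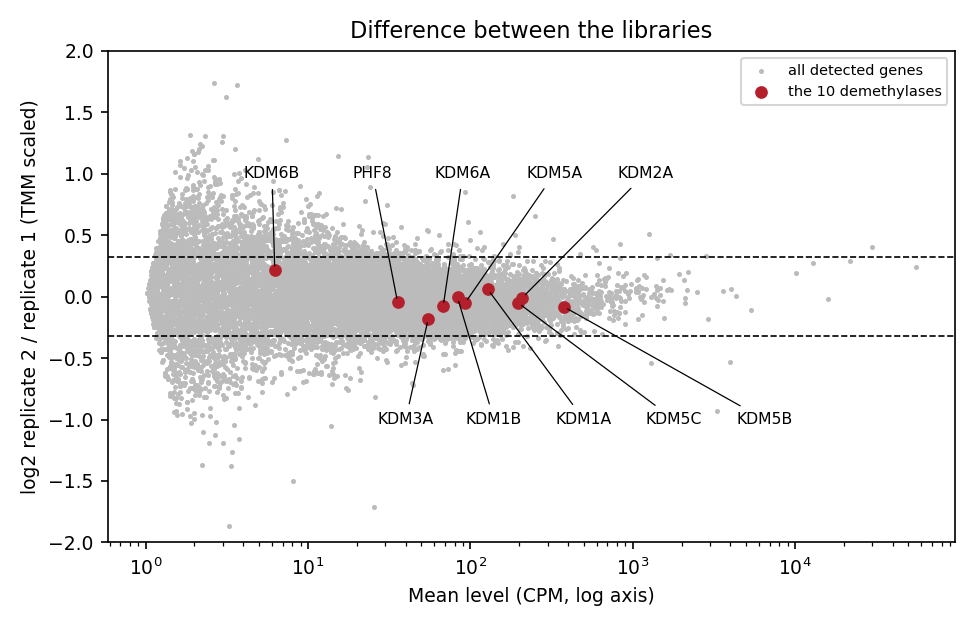
Log2 ratio of replicate 2 to replicate 1 after TMM scaling against mean CPM on a log axis, for the 14176 detected genes (grey) and the 10 demethylases (red); dashed lines mark 0.32 on the log2 scale, and 3 genes lie outside the axis. All 10 demethylases lie between the lines, and KDM6B and KDM3A are the furthest from 0.

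Genes that work with or against these enzymes were mostly detected. Of all nuclear protein-coding genes, 60.9% were detected by the same rule, and the counts below were not tested against that share. Outside these 10, 13 of 15 further genes of JmjC proteins passed the detection level. Not all of these, JMJD6 and RIOX2 among them, are established demethylases of histone lysines. The list median was 10.5 and 9.40 TPM in replicates 1 and 2. KDM3B with 31.7 ± 3.73 TPM (mean ± SD, n = 2), JMJD1C with 17.7 ± 0.897 TPM and the H3K9 demethylase KDM4B with 17.4 ± 1.11 TPM were highest. KDM4E had no reads, and RIOX1 had 0 and 2 reads, but other gene rows cover 98.6% of its exon bases, so its reads could not be assigned.

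KDM1A works in repressor complexes with corepressors and deacetylases, and 14 of 16 such genes were detected, with a median of 12.4 and 11 TPM. The nucleosome remodelling subunit MTA2 with 92.0 ± 8.51 TPM, the deacetylase HDAC1 with 63.7 ± 6.37 TPM and the remodelling ATPase CHD4 with 51.5 ± 4.88 TPM were highest. Among the CoREST scaffolds, which hold KDM1A on nucleosomes, RCOR1 had 21.6 and 17.2 TPM, RCOR3 9.89 and 9.08 TPM and RCOR2 2.26 and 3.09 TPM. The blood cell repressors GFI1, with 4 and 9 reads, and GFI1B, with 2 and 0 reads, were not detected.

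Among the H3K4 methyltransferases and their core subunits, which write the mark that KDM1 and KDM5 enzymes erase, 13 of 14 matched genes were detected, with a median of 9.14 and 8.59 TPM. The shared subunits WDR5 (38.2 ± 3.07 TPM) and RBBP5 (29.5 ± 5.26 TPM) led, followed by DPY30 (18 ± 2.1 TPM), of whose exon bases other rows cover 50.5%. KMT2B had no reads, and 99.99% of its exon bases are shared with other rows. The catalytic subunits of the KDM6A complexes, KMT2C and KMT2D, had 8.01 and 7.5 TPM and 5.48 and 5.73 TPM in replicates 1 and 2.

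Of 11 subunits of PRC2, the Polycomb complex that methylates H3K27 and is opposed by KDM6 enzymes, 10 were detected, with a median of 15.3 and 14.5 TPM. The histone-binding subunit RBBP7 (83.8 ± 11.2 TPM), SUZ12 (32.5 ± 6.93 TPM) and PHF19 (26.1 ± 1.8 TPM) were highest. The catalytic subunit EZH2 had 21.8 and 16.8 TPM. PHF1 had 1 read in replicate 1 and 60 in replicate 2. It lies on chromosome 6 among 50 protein-coding genes within 1 Mb on either side, itself included, of which 8 were detected and 26 had no read in either library, so its low value was not read as low expression. In the same window around KDM1B, also on chromosome 6, 10 of 10 were detected.

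All 10 genes of cofactor supply were detected, with a median of 27.2 and 23.4 TPM. IDH2, which makes 2-oxoglutarate in mitochondria, had 167 ± 16.2 TPM, the citrate carrier SLC25A1 89.9 ± 2.64 TPM and the glutamate dehydrogenase GLUD1 85.8 ± 0.134 TPM. FLAD1 and RFK, the enzymes that make FAD, had 42.3 and 37.8 TPM and 6.66 and 5.53 TPM in replicates 1 and 2.

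**Figure D4:**
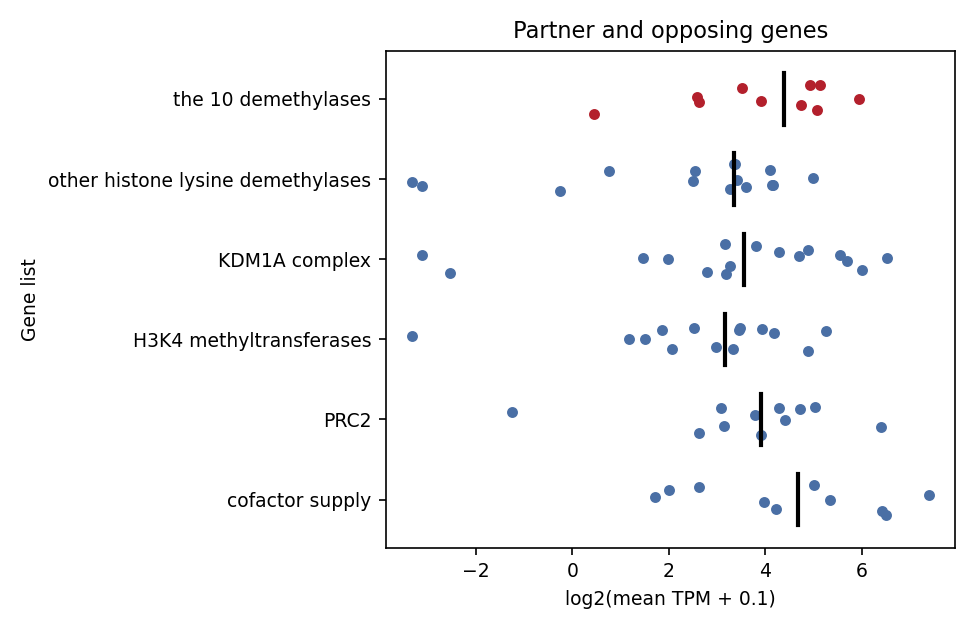
Mean level of each gene as log2(TPM + 0.1) for the 10 demethylases (red) and 5 lists of related genes (blue), with a black bar at the median of each list. The median of the 10 demethylases lies below that of the genes of cofactor supply and above those of the other lists.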

How the data were processed

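The deposited values are raw counts that the authors made with featureCounts 2.0.2 and the exons of GENCODE release 19, per the file headers. The recorded call sets no option for strand, pairs, multimapping or overlap, so sense and antisense reads on the same bases cannot be told apart. The submitters' processing notes name HISAT2, without a version, and the build hg19 (GRCh37). The names of both columns used give the line, the mutated residue and the replicate, which matched them to the 2 samples, but not the siRNA. Another 8 columns of per-sample values match no sample described here and were not used.

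Gene names matched 51996 identifiers (89.9%); the rest held 9.83% and 11.6% of the reads in replicates 1 and 2. PAGR1 was not matched. The list of immune markers is not reported here. CPM and TPM were computed from the deposited counts, TPM with the deposited summed exon length. For values by transcript length, the TPM of a gene was multiplied by its summed exon bases over its longest coding transcript, without rescaling. Detection meant at least 1 CPM in each library. Counting intervals are 95%, exact Poisson for a level and exact conditional binomial for a ratio. Counting error is all they cover: reads carry no molecular identifiers here, and mates, if counted one by one, would make them too narrow. A ratio passed when it had 1 sign in both libraries and the size of its mean log2 was above the 95th percentile of the differences between the libraries, taken over genes with a mean CPM like that of the lower gene (classes with edges at 1, 5, 20, 50, 100 and 500). That spread holds no error between genes, such as that of length, and no p-value was computed. TMM factors came from edgeR 4.0.16, and size factors for an alternative from DESeq2 1.42.0. The libraries differed beyond sampling noise (chi-square 15.4 per gene), so both were kept. The calculation of library differences was tested on simulated data. Named genes were all members, the relatives in 10 pairs, markers of the cell type and, of each partner list, the 3 highest and every undetected gene; RCOR1, RCOR2, RCOR3, KMT2C, KMT2D, EZH2, FLAD1 and RFK were added after their values were seen. Members, lists and pairs were chosen with earlier results of these data known. Gene types and transcript lengths came from GENCODE release 29, whose coordinates are on another build (GRCh38).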

Additional observations from a re-analysis of the deposited data

How the results depend on the processing

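Calls or directions changed with the gene length, with the way the spread was taken and, for 1 pair, with the library left out. In CPM, without length, the log2 ratio was -0.62 for KDM1A to KDM5C, -0.45 for KDM6A to KDM5A and -0.09 for KDM5C to KDM2A, all 3 turned round and the last within the spread, 1.33 for KDM2A to KDM1B, 0.62 for KDM3A to PHF8 and 0.62 for KDM1A to KDM1B, all then past the spread, and 0.29 for KDM1B to KDM6A and -0.35 for PHF8 to PHF2, no longer past it. With the longest coding transcript, chosen after seeing the data, it was -0.20 for KDM5B to KDM1A and -0.37 for KDM5A to KDM3A, both turned round, 0.46 for KDM2A to KDM1B, 0.92 for KDM3A to PHF8 and 0.94 for KDM1A to KDM1B, past the spread, and 0.17 for KDM5B to KDM5C and -0.15 for PHF8 to KDM7A, within it. The values by transcript keep reads on exons outside that transcript, so reads and length cover different bases. With the spread taken about the median difference, also added later, KDM6A to KDM5A (0.38) and KDM1A to KDM1B (0.39) passed. Without exon bases shared with other rows, without replicate 1, without replicate 2 and with the 99th percentile as the spread, the calls of the 9 neighbour and 10 relative pairs stayed as in the report, and so did their directions, except that KDM3A to PHF8, within the spread, was -0.02 without replicate 1. Among the genes of these pairs only KDM5A, KDM2B and JMJD1C share exon bases, so ratios without them could not change with that setting. With a replicate left out, the spread still came from both libraries, and the rule on sign was met by default. With TPM computed over nuclear protein-coding genes only, levels of the 10 members were 3.54 to 3.57 times as high. The count of members past 0.32 (log2) between the libraries was 0 in either direction with library totals, with DESeq2 size factors and without the CPM filter, and also past the wider limit of 0.58 (log2). No paired analysis was possible because there is 1 group. Depth limits KDM6B most, with 241 and 248 reads.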
